A study of Arabidopsis thaliana with 4 samples.

Results

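The proteins L21 to L38 of the large (60S) subunit of the cytosolic ribosome are encoded in Arabidopsis thaliana by small families of paralogues, and 51 loci in 20 such families were examined here. The rule names the loci, and uses measured signal only to choose among several probe sets of a locus, a case that did not arise. It was written with earlier results of these data known. A locus was measured where the platform annotation gave it a probe set of its own, which held for 28 of the 51 loci, or 28 of the 22746 probe sets on the array that were not controls. A further 10 loci were matched only by 6 probe sets that paralogues share, and 13 had no listed probe set. Values for these 23 loci are not reported, so L21, L23, L23A, L24, L27A, L32, L36A and L38 are not described, and L30 and L37A rest on 1 tested locus each. No locus had more than 1 probe set of its own. All 28 probe sets carry the plain suffix of sets designed for a single transcript, but paralogues are so similar that cross-hybridization is possible, and its part in the values of single loci was not tested.

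The samples were Col-0 plants, a standard laboratory accession with no mutation or transgene named in the labels, grown on soil mix under continuous light at 22 °C. Axillary buds were taken before decapitation, the removal of the main shoot apex, and axillary shoots were taken 24 h after it, with 2 ATH1 arrays in each group (bud arrays and shoot arrays). The labels name no treatment besides decapitation, and no buds of intact plants at the later time were among the samples, so that decapitation, wounding, the 24 h of age and the make-up of the tissue cannot be told apart. Whether separate plants went into the arrays of a group is not in the labels, so that p-values reflect the spread between these arrays alone, which may be technical.

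Cytosolic ribosomes are assembled in the nucleolus from ribosomal RNA and one copy of most ribosomal proteins, and growing plant organs make many of them. Angiosperm genomes carry several genes for nearly every ribosomal protein, and the paralogues of a family encode proteins that are often close to identical. Axillary buds can stay dormant until the main shoot tip is removed, after which they resume growth and protein synthesis.

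Each array had been scaled by the submitters to a trimmed mean signal of 100, and the bud arrays had median signals of 46.3 and 43.6 over all probe sets and the shoot arrays 40.9 and 40.6. The highest signal on an array, controls included, was 1329 and 1649 in buds and 1144 and 1469.9 in shoots. Within groups, the log2 signals of the 13648 tested probe sets correlated at r = 0.952 for buds and 0.958 for shoots (a correlation across probe sets, which are not independent replicates). The ratio of 3' to 5' signal of the actin control was 1.66 and 1.38 in buds and 0.990 and 1.14 in shoots, and thus moved with the groups. Older controls for actin (5.81 and 6.67 in buds, 2.13 and 3.19 in shoots), GAPDH (1.51 and 0.812, 0.714 and 0.601) and ubiquitin (1.04 and 1.02, 0.966 and 0.973) were lower in shoots without overlap too. The groups overlapped for the newer GAPDH control (1.198 and 1.081 in buds, 1.142 and 0.938 in shoots) and the newer ubiquitin control (0.704 and 0.963, 0.718 and 0.887). The part of this shift in the results below was not tested. Of 16 listed marker genes of the shoot meristem and organ primordia, 3 had a probe set of their own: YAB3, a gene of organ polarity, gave signals of 117 and 114 in buds and 229 and 175 in shoots, and the stem cell gene CLV3 (1.06 to 7.32) and the axillary meristem gene LAS (15.4 to 19.6) lay below the lowest mean signal tested, 23.1. RCA, a mesophyll marker, gave 469 and 526 in buds and 717 and 329 in shoots, and IRX10, a xylem and fibre marker, 44.0 and 57.8 in buds and 33.3 and 38.8 in shoots. These were the measured members of lists of 10 mesophyll and 10 xylem and fibre genes, and none of 5 phloem and 6 flower genes had a probe set of its own.

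Shoots were set against buds to ask which of these transcripts differ 24 h after decapitation. Of the 28 measured loci, 27 passed the filter on dim probe sets, and 14 of the 27 were higher in shoots, where the threshold was an adjusted p of 0.05 (limma, Benjamini-Hochberg adjustment over all 13648 probe sets). By the same test 0 were lower, and 17 of the 27 had an unadjusted p under 0.05, all with higher signal in shoots, a result found for 16.8% of all tested probe sets (37.3% in either direction). Over all tested probe sets, 10.2% were called higher and 12% lower, or 22.1% in either direction. The median log2 fold change of the 27 loci was 0.75 (a fold of 1.68), beside −0.06 over all tested probe sets, and the lowest and highest were −0.21 and 1.81. Both shoot arrays lay above both bud arrays for 19 of the 27 loci, an order found for 29.7% of all tested probe sets. The opposite order, found for 35.5% of all tested probe sets, was seen for 0 of the 27, and the groups overlapped for the other 8. In whole tissue, more cells of a type and more RNA per cell cannot be told apart.

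**Figure D1:**
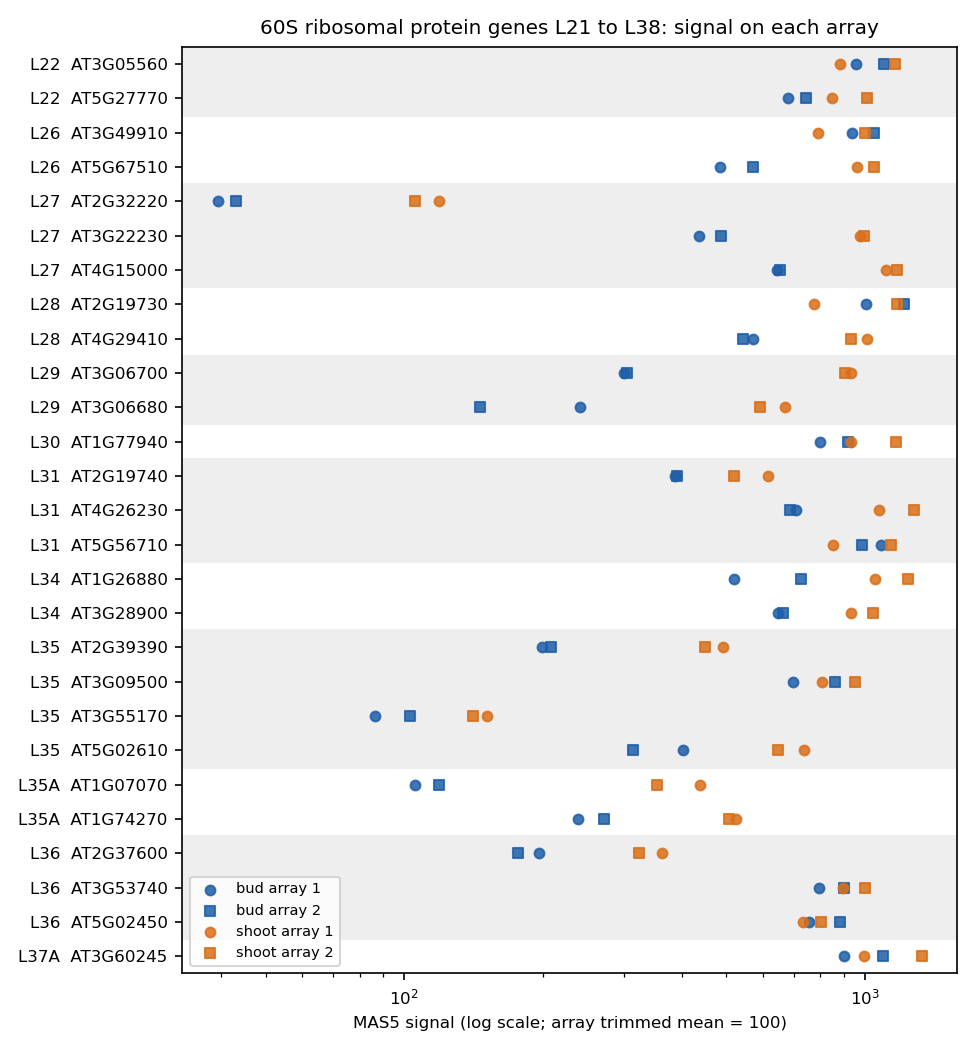
MAS5 signal of the 27 tested loci on a log axis, 1 row per locus, with shaded bands separating the protein families; blue symbols are the bud arrays and orange symbols the shoot arrays. Orange lies to the right of blue without overlap in 19 rows, and the rows with overlap sit near the bright end, at single-array signals of 699.7 to 1329.

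The calls depended on single arrays. With 1 array left out at a time, AT1G07070, AT3G06700, AT3G06680, AT2G32220 and AT2G39390 passed the test in all 4 cases, and the others missed it in at least 1. Fewer of the 27 loci were called in each of these fits than with all 4 arrays, and the fewest without shoot array 1. The same was true of all tested probe sets, and 1 group held a single array in each of these fits. The median log2 fold change of the 27 loci lay between 0.65 and 0.76 in these fits, so the counts fell more than the sizes of the changes.

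Both L29 genes rose by more than any other tested locus except AT1G07070. L29 is a small basic protein that in budding yeast takes part in the joining of the subunits. AT3G06700 gave signals of 301 and 305 in buds and 933 and 903 in shoots, 3.03-fold higher in shoots (log2 fold change 1.60 ± 0.19 SE, adjusted p = 0.00278, limma). Its paralogue AT3G06680 gave 241 and 146 in buds and 672 and 593 in shoots, 3.36-fold higher (log2 fold change 1.75 ± 0.26 SE, adjusted p = 0.00533). Each shoot array lay well above each bud array for both loci. Both are on chromosome 3 with a single protein-coding gene between them in the TAIR10.1 gene set. The log2 fold change of AT3G06680 was 2.11 without bud array 1 and 1.39 without bud array 2.

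The largest change of the 27 loci was in L35A. Loss of one copy of the human gene for this protein is a cause of Diamond-Blackfan anaemia, a failure of red cell production. AT1G07070 gave 106 and 119 in buds and 438 and 354 in shoots, 3.51-fold higher (log2 fold change 1.81 ± 0.21 SE, adjusted p = 0.00253, limma). AT1G74270 gave 238 and 271 in buds and 525 and 508 in shoots, 2.03-fold higher (log2 fold change 1.02 ± 0.20 SE, adjusted p = 0.0108), and did not pass with shoot array 1 left out (adjusted p = 0.0696). For both loci every shoot array lay above every bud array. The other L35A loci, AT1G41880 and AT3G55750, share a probe set.

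All 3 loci of L27 rose. The human L27 gene is another of those mutated in Diamond-Blackfan anaemia. AT2G32220 was the dimmest of the 27 probe sets, with 39.3 and 43.1 in buds and 119 and 106 in shoots, a 2.73-fold rise (log2 fold change 1.45 ± 0.22 SE, adjusted p = 0.00575, limma). AT3G22230 went from 438 and 487 in buds to 974 and 995 in shoots, or 2.13-fold (log2 fold change 1.09 ± 0.20 SE, adjusted p = 0.00956). AT4G15000 went from 645 and 654 to 1109.9 and 1177, or 1.76-fold (log2 fold change 0.82 ± 0.20 SE, adjusted p = 0.0254), with its first shoot signal close to the 1144 that was the highest on that array. No L27 locus had overlapping groups. With shoot array 1 left out AT3G22230 did not pass (adjusted p = 0.0562). AT4G15000 did not pass when any single array was left out (adjusted p from 0.0703 to 0.110) and with no filter on dim probe sets (adjusted p = 0.0531).

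L26, L31 and L35 lie around the exit of the tunnel through which the nascent chain leaves the ribosome, L35 near the docking site of the signal recognition particle. In each of these families at least 1 locus rose and at least 1 gave overlapping groups, which was also true of L28 and L36.

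Of the L35 loci, AT2G39390 gave 199 and 208 in buds and 493 and 449.8 in shoots, 2.31-fold higher (log2 fold change 1.21 ± 0.19 SE, adjusted p = 0.00624, limma). AT5G02610 gave 403 and 315 in buds and 737 and 647 in shoots, 1.94-fold higher (log2 fold change 0.96 ± 0.22 SE, adjusted p = 0.0187). AT3G09500 gave 699.7 and 863 in buds and 806 and 954 in shoots, with overlap between the groups and a log2 fold change of 0.17 (95% interval −0.34 to 0.68). AT3G55170 gave 86.4 and 103 in buds and 152 and 141 in shoots, without overlap, but missed the threshold (log2 fold change 0.63, adjusted p = 0.0627, limma). It passed when the arrays were set to equal medians (adjusted p = 0.0314). AT5G02610 did not pass without bud array 2 (adjusted p = 0.0712) or shoot array 1 (adjusted p = 0.115).

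L26 had 1 rising locus of its 2 loci. AT5G67510 gave 486 and 572 in buds and 961 and 1045 in shoots, 1.90-fold higher (log2 fold change 0.93 ± 0.21 SE, adjusted p = 0.0185, limma). AT3G49910 gave 938 and 1047 in buds and 789 and 1001 in shoots, so that the groups overlapped, at a log2 fold change of −0.16 (95% interval −0.67 to 0.36). AT5G67510 did not pass without bud array 1 (adjusted p = 0.0840), shoot array 1 (adjusted p = 0.0822) or shoot array 2 (adjusted p = 0.0708).

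Of the 3 loci of L31, which in yeast also contacts chaperones at the tunnel exit, AT4G26230 rose. Its signals were 707 and 686 in buds and 1074 and 1279.9 in shoots, 1.68-fold higher (log2 fold change 0.75 ± 0.21 SE, adjusted p = 0.0384, limma). AT2G19740 gave 387 and 391 in buds and 617 and 519 in shoots, without overlap, and did not pass (log2 fold change 0.54, adjusted p = 0.0894, limma). AT5G56710 gave 1087 and 985 in buds and 853 and 1138 in shoots, with overlap, at a log2 fold change of −0.07 (95% interval −0.60 to 0.46). AT4G26230 did not pass when any single array was left out (adjusted p from 0.106 to 0.161) or with no filter (adjusted p = 0.0769).

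In L28, L34 and L36 some loci passed the test and others did not. L28 is a protein that budding yeast lacks. Its locus AT4G29410 gave 573 and 544 in buds and 1009.6 and 932 in shoots, 1.74-fold higher (log2 fold change 0.80 ± 0.20 SE, adjusted p = 0.0266, limma), whereas AT2G19730 gave 1007 and 1218 in buds and 777 and 1175 in shoots. The groups overlapped for AT2G19730, whose log2 fold change of −0.21 was the lowest of the 27 (95% interval −0.81 to 0.39). AT2G19730 lies directly beside the L31 locus AT2G19740 on chromosome 2, with no protein-coding gene between them in the gene set. AT4G29410 did not pass when any single array was left out (adjusted p from 0.0685 to 0.151) or with no filter (adjusted p = 0.0532).

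For L36, AT2G37600 gave 197 and 176 in buds and 363 and 323 in shoots, 1.84-fold higher (log2 fold change 0.88 ± 0.20 SE, adjusted p = 0.0181, limma). AT3G53740 gave 796 and 901 in buds and 898 and 999 in shoots (log2 fold change 0.16), and AT5G02450 gave 757 and 885 in buds and 734 and 805 in shoots (log2 fold change −0.09). Both of these loci had overlapping groups. AT2G37600 did not pass without bud array 2 (adjusted p = 0.0530) or shoot array 1 (adjusted p = 0.118).

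For L34, AT1G26880 gave 521 and 727 in buds and 1053 and 1238 in shoots, 1.86-fold higher (log2 fold change 0.89 ± 0.24 SE, adjusted p = 0.0327, limma). AT3G28900 gave 647 and 665 in buds and 933 and 1040.2 in shoots, without overlap, and did not pass (log2 fold change 0.59, adjusted p = 0.0736, limma), although it did with quantile normalization (adjusted p = 0.0262). The bud arrays differed more for AT1G26880 than for AT3G28900. AT1G26880 was called without bud array 2, and did not pass without bud array 1 (adjusted p = 0.172), shoot array 1 (adjusted p = 0.0984) or shoot array 2 (adjusted p = 0.125), and with no filter (adjusted p = 0.0660).

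No tested locus of L22, L30 or L37A passed. L22 is an RNA-binding protein known in mice for its role in T cell development. Its locus AT5G27770 gave 679.9 and 746 in buds and 848 and 1012 in shoots, without overlap, at a log2 fold change of 0.38 (95% interval −0.11 to 0.87). AT3G05560 gave 958 and 1099.7 in buds and 881 and 1163 in shoots, with a log2 fold change of −0.02 (95% interval −0.55 to 0.51).

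L30, which in yeast restrains the splicing of its own transcript, had 1 tested locus, AT1G77940, with 797 and 917 in buds and 932 and 1166 in shoots (log2 fold change 0.29, 95% interval −0.23 to 0.80). The groups of AT1G77940 came close but did not overlap. The other L30 locus, AT3G18740, carries the symbol of a receptor kinase in the gene table and had no listed probe set. L37A, a zinc-binding protein, was measured at AT3G60245 with 899 and 1096 in buds and 995 and 1329 in shoots, which overlapped (log2 fold change 0.21, 95% interval −0.34 to 0.76). Its paralogue AT3G10950 gave 6.31 and 2.21 in buds and 0.175 and 3.94 in shoots and was the 1 locus below the filter. All 4 signals of AT3G10950 lay below 23.1.

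**Figure D2:**
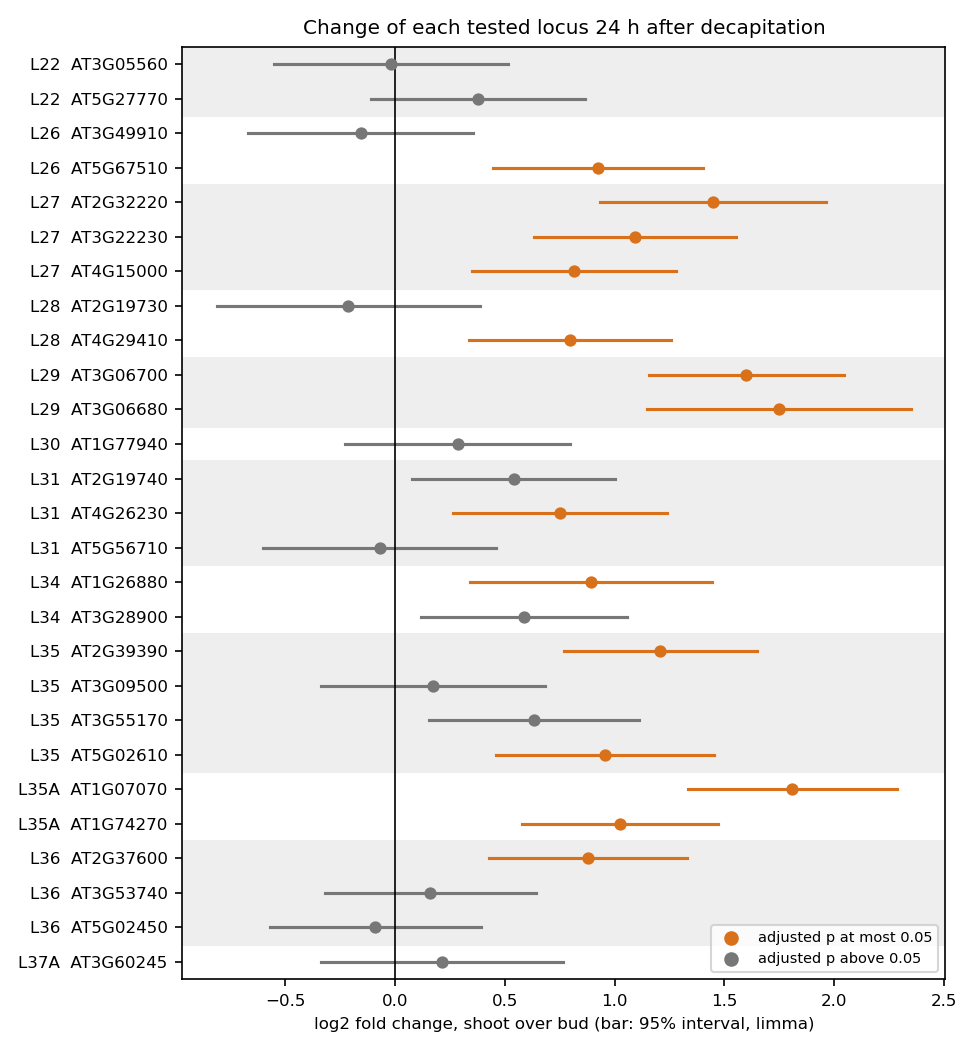
Log2 fold change of each tested locus, shoot over bud, with its 95% interval from limma, grouped by protein family. Orange marks the 14 loci that passed the test, in 9 of the 12 families with a tested locus, and grey the 13 that did not; the 5 loci left of 0 have intervals that span 0.

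Paralogues were then compared directly. The log2 ratio of 2 paralogues was taken within each array, which removes the scaling of the array, and its difference between shoots and buds was tested with limma over 69 pairs of paralogues from all cytosolic ribosomal protein families, with Benjamini-Hochberg adjustment over the 69. Signals of different probe sets are not levels on a common scale, so only the changes were compared. Of the 69 pairs, 20, or 29%, passed. Of these pairs 21 were in 10 families of L22 to L36, and 5 of the 21 passed, or 23.8%, close to the share over all 69. A p under 0.05 before adjustment was reached by 10 of the 21 (47.6%) and by 37 of the 69 (53.6%).

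The 5 pairs that passed were in 5 families, with differences of 0.79 to 1.08 on the log2 scale. In L26, AT5G67510 changed by 1.08 more than AT3G49910 (95% interval 0.62 to 1.55, adjusted p = 0.0308, limma). The ratio of AT3G49910 to AT5G67510 was 0.95 and 0.87 on the log2 scale in buds and −0.28 and −0.06 in shoots, and thus fell on both shoot arrays. In L35, AT2G39390 changed by 1.03 more than AT3G09500 (0.48 to 1.59, adjusted p = 0.0389, limma), with log2 ratios of −1.81 and −2.05 in buds and −0.71 and −1.08 in shoots. In L36, AT2G37600 changed by 0.97 more than AT5G02450 (0.39 to 1.54, adjusted p = 0.0404, limma). In L31, AT4G26230 changed by 0.82 more than AT5G56710 (0.37 to 1.27, adjusted p = 0.0389, limma). In L35A, where both loci rose, AT1G07070 changed by 0.79 more than AT1G74270 (0.31 to 1.26, adjusted p = 0.0404, limma). The ratio groups did not overlap for any of the 5 pairs.

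These pair calls were close to the threshold. Each of the 5 pairs missed the threshold in some fits with 1 array left out, in which 1 group held a single array. The same was true of the other pairs that passed among the 69. The size of the difference stayed between 0.66 and 1.22 for the 5 pairs in all fits with 1 array left out. With dim probe sets included, 88 pairs were fitted and 0 of all 88 passed (limma, adjusted p of the 5 pairs from 0.0602 to 0.0935).

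The widest difference that did not pass was in L28, where AT4G29410 changed by 1.01 more than AT2G19730 (95% interval 0.25 to 1.77, adjusted p = 0.0559, limma). It passed without bud array 1 (adjusted p = 0.0228) or shoot array 2 (adjusted p = 0.0353), and was 0.65 without shoot array 1. In L27, AT2G32220 changed by 0.63 more than AT4G15000 (0.15 to 1.11, adjusted p = 0.0559, limma). This difference lay between 0.50 and 0.76 with 1 array left out, and was 0.68 with quantile normalization. AT2G32220 was the dimmest tested locus, and with 16 added to each signal as a pseudocount the difference was 0.37. The L22 loci differed by 0.40 (95% interval −0.05 to 0.84, limma), and the L34 loci by 0.31 (−0.25 to 0.86), or by 0.08 without bud array 1 and 0.53 without bud array 2. The smallest difference was between the L29 loci, where AT3G06680 changed by 0.15 more than AT3G06700, but the interval of −0.59 to 0.89 does not show that they changed alike. This difference was 0.52 without bud array 1 and, with its direction turned, −0.22 without bud array 2.

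**Figure D3:**
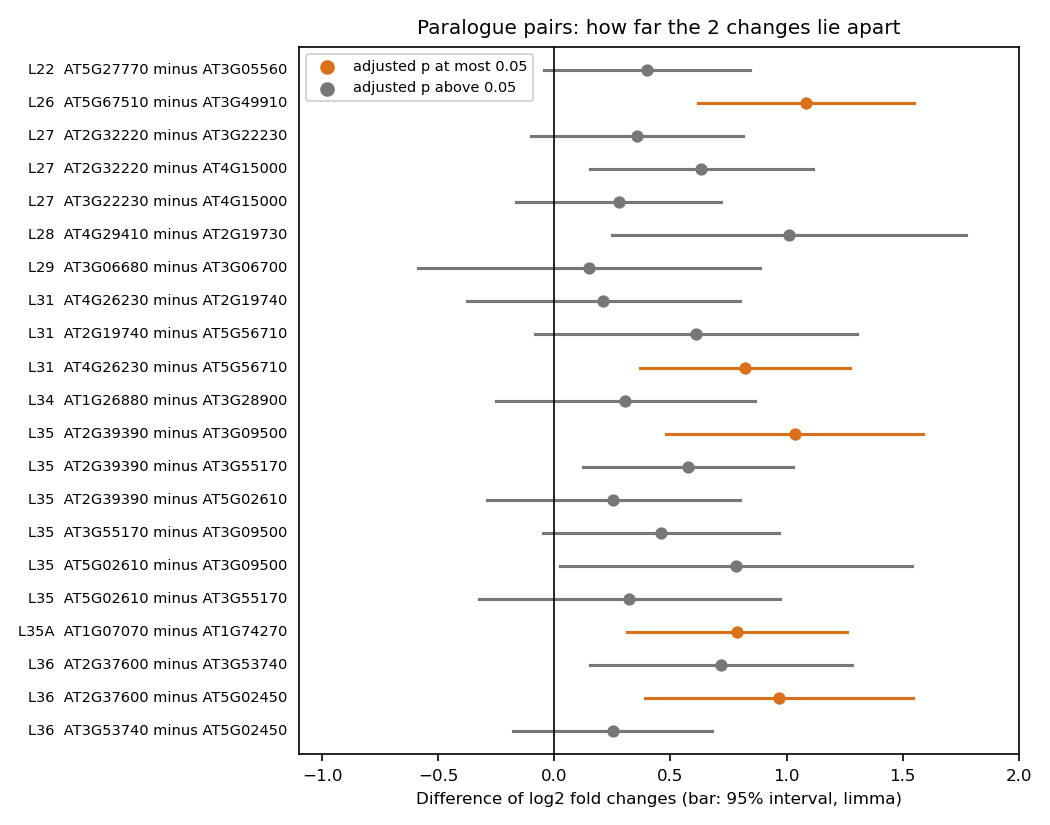
Difference between the log2 fold changes of 2 paralogues for the 21 pairs, written so that the difference is positive, with 95% intervals from limma. Orange marks the 5 pairs that passed the test over 69 pairs; the largest difference is 1.08 in L26 and the smallest 0.15 in L29.

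The loci that did not pass were mostly bright. Bands of the geometric mean signal over all 4 arrays were set after the values were seen, and are given as a description. Below a mean signal of 400, 6 of 7 loci were called higher, with a median log2 fold change of 1.21. Between 400 and 800, 5 of 7 were called higher (median 0.93). At 800 or more, 3 of 13 were called higher (median 0.21). Over all tested probe sets the share called higher was 10%, 16.5% and 0.816% in the same bands, and the median log2 fold change −0.07, 0.15 and −0.11. Of the 490 tested probe sets at 800 or more, 4 were called higher, and 3 of these 4 were AT1G26880, AT4G15000 and AT4G26230. The largest log2 fold change among those 490 was the 0.89 of AT1G26880. AT5G56710, AT3G05560, AT2G19730 and AT3G60245 were among the brightest 1% of all probe sets, at signals of 777 to 1329 beside highest signals of 1144 to 1649 on the arrays. The part of this limit of the signal range in the differences between paralogues was not tested. On shoot array 1 the signal was lower than on shoot array 2 for 11 of the 13 loci that did not pass and for 5 of the 14 that did. On bud array 1 it was lower than on bud array 2 for 21 of the 27 loci. The call itself depends on these signals, and the share over all tested probe sets was not counted, so this split is a description only.

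**Figure D4:**
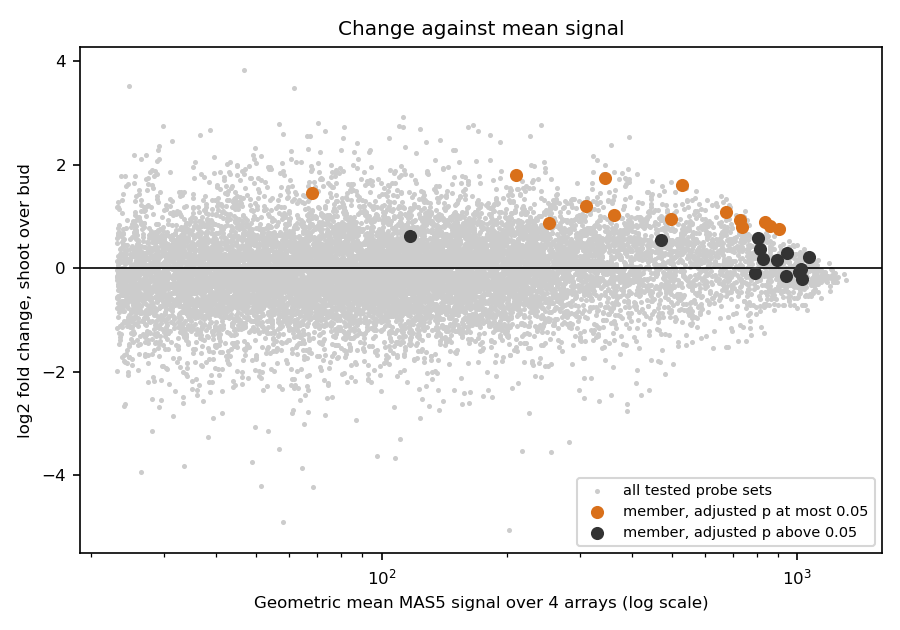
Log2 fold change, shoot over bud, against the geometric mean MAS5 signal over the 4 arrays (log axis) for all 13648 tested probe sets in grey and the 27 loci in colour. The range of grey points narrows toward the bright end, where 10 of the 13 loci that did not pass lie at a mean signal of 800 or more.

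The genes for the 60S proteins L3 to L19 and for the 40S proteins were counted in the same fit. Of the 60S proteins L3 to L19, 57 loci were listed and 33 tested, of which 6 were higher and 1 lower, with a median log2 fold change of −0.08. Of the 40S proteins, 96 loci were listed and 41 tested, of which 10 were higher and 1 lower, with a median of 0.28. The share called higher was thus 51.9% for L21 to L38, 18.2% for L3 to L19 and 24.4% for the 40S loci, beside 10.2% of all tested probe sets. Without shoot array 1, fewer loci of each list and fewer of all tested probe sets were called higher. The median log2 fold changes were then 0.74 for L21 to L38, 0.09 for L3 to L19 and 0.37 for the 40S loci, beside −0.05 over all tested probe sets. The difference between these lists was not tested. Among pairs of paralogues, 13 of 25 in L3 to L19 and 2 of 23 in the 40S families passed.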

How the data were processed

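Total RNA was purified on columns, biotin-labelled by a 3' in vitro transcription kit and measured on ATH1 arrays, per the labels' protocols. The deposited values are linear probe set intensities which the authors made by MAS5 and GCOS, per the submitters' processing notes, with no version stated there. On each array the mean with 2% of probe sets trimmed from either end was 100. The scaling hides any change in total RNA. The number of arrays limits the precision, and 0.333 is the smallest two-sided p that an exact permutation test can give with 2 arrays a group.

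Log2 intensities, without pseudocount or further scaling, of the 13648 probe sets in the upper 60% by mean log2 signal were fitted over all 4 arrays with limma 3.58.1 under R 4.3.3, with variances moderated along an intensity trend and a threshold of 0.05 after Benjamini-Hochberg adjustment. Values after ± are standard errors, and folds are ratios of geometric means. Pairs were fitted on log2 ratios without a trend. Both fits were run on simulated data with independent normal errors. These hold no array effects and no limit of the signal range, and so say nothing about either.

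Probe sets were named through an older platform annotation and the TAIR10.1 gene set: of 22746, 13513 had 1 gene, 503 several and 8730 none listed. The assignment of loci to proteins follows the field's usual nomenclature, since the tables spell out few of the names. The members and lists were chosen with earlier results of these data known. Every tested locus was named. A planned display of protein and promoter sequences was not made, as no sequence table was used here. Alternatives were equal medians, quantile normalization, no filter, a pseudocount of 16, no variance trend, a replicate block and each array left out.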

Additional observations from a re-analysis of the deposited data

How the results depend on the processing

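The 14 loci called higher had positive log2 fold changes under every alternative fitted. This sign was mostly fixed in advance and is no test of the rise. Both shoot arrays lay above both bud arrays for all 14, so leaving out 1 array or adding a pseudocount keeps the sign. The replicate block, no filter and no variance trend leave the log2 fold changes as they were, and equal medians raised them all alike. Only quantile normalization could have turned a sign. Of the 27 tested loci, 0 were called lower under any alternative. With a pseudocount of 16 or no variance trend the same 14 loci passed. All 14 also passed, together with further loci, under equal medians (15 in all), quantile normalization (15) and the replicate block (17). With no filter 10 of the 14 passed. With 1 array left out, 5 to 9 loci passed. Over all probe sets, 1388 were higher and 1635 lower; with 1 array left out 230 to 1181 were higher and 432 to 1468 lower. Equal medians moved the log2 fold changes of the tested probe sets by 0.14 in the median and the share of calls that were higher from 45.9% to 61.1%, while the median of the 27 loci lay 0.81 above that of all probe sets in both; of the 5 loci with negative log2 fold changes, 2 were still negative. Of the 21 pairs, 5 passed, beside 20 of all 69. The number was 9 with quantile normalization (32 of all 69) and 8 with an intensity trend in the pair variances (26 of all 69). With no filter it was 0 (0 of all 88). In the fit as reported, 10 of the 21 had an unadjusted p under 0.05 (limma). The pairs that passed changed with the array left out, and 1 group then held a single array. Replicate numbers are shared between the groups, but the labels do not say that they mark a common batch. The deviations of bud array 1 and shoot array 1 from their group means correlated at r = 0.225 across the tested probe sets. With 2 arrays a group, the arrays numbered 2 must give the same value, so this is a single comparison. With the replicate number as a block, 17 of the 27 loci and 12 of the 21 pairs (44 of all 69) passed, and 2109 probe sets were higher and 2548 lower. The alternative choice among several probe sets of a locus changed nothing, as no locus had several. Whether signals close to the highest on the arrays limit the changes of the brightest loci was not tested.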
